A study of Mus musculus with 7 samples.

Results

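Tight junctions seal the space between neighbouring epithelial cells, and 9 genes of this structure were followed in the ileum of mice on a normal or a low cystine diet. The genes were Cldn2, Cldn3, Cldn4, Cldn7, Cldn15 and Cldn23 (claudins), Ocln (occludin), F11r (junctional adhesion molecule A) and Tjp1 (the scaffold protein ZO-1). They were taken by name from the 38293 genes of the deposited count table, and all 9 passed the filter on low counts. RNA came from scrapings of the ileum, the lower end of the small intestine, of male C57BL/6NRJ mice. They were housed individually, and their age was given as 8 weeks, without a statement whether this was before or after the feeding. The 4 normal cys mice received AIN93G high fat feed with 0.38% cystine, and the 3 low cys mice received the same feed with 0.08% cystine, in which the added cystine had been replaced by alanine. In both groups 40% of the energy came from fat and calcium was low, and the diets were given for 2 weeks after 1 week of acclimatization on the control feed. Each library was 1 mouse, and scrapings held epithelium together with lamina propria.

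Claudins are small membrane proteins that span the membrane several times, and their extracellular loops decide which ions pass between the cells. Claudin-2 and claudin-15 form pores for small cations, and claudin-2 also lets water pass, while claudin-3, claudin-4 and claudin-7 are counted among the sealing claudins. Occludin and the adhesion molecule encoded by F11r are further membrane proteins of the junction, and ZO-1 ties all of these to the actin cytoskeleton. In the mouse intestine Cldn2 is known to be stronger in crypts, and Cldn4 and Cldn23 are known from the surface and villus side.

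The low cys libraries lay above all normal cys libraries in Cldn2 and below all of them in F11r and Cldn7, and in the other 6 genes the libraries of the diets overlapped. The estimate for Cldn2 was 1.76-fold on the low cystine diet, that for F11r 0.807-fold and that for Cldn7 0.835-fold. No member passed the test after adjustment over all genes. In edgeR's quasi-likelihood test, with Benjamini-Hochberg adjustment over the 14869 genes tested, 0 of the 9 members were called at 0.05, where 0% of all genes were called, and their adjusted p-values were 0.794 or more. At an unadjusted p-value under 0.05 stood 2 of the 9 genes, Cldn2 and F11r, against 5.49% of all genes (817 genes). Of the 9 genes, 3 were without overlap between the diets, 1 on the higher and 2 on the lower side, against 6.83% of all genes, 3.32% higher and 3.51% lower. On total counts these 3 were still without overlap, against 8.25% of all genes, and Cldn2 (1 of 9) stayed under 0.05 unadjusted in edgeR, against 6.97%. When each member was set against epithelial genes of the same library, 1 of the 9 (Cldn2) was without overlap, against 9.93% of all genes, a share near this background. DESeq2 placed 16 genes (0.0939%) under an adjusted p-value of 0.05 and 0 of the 9 members, and put 4 of the 9 members (Cldn2, Cldn4, Cldn7 and F11r) under an unadjusted p-value of 0.05, against 4.5% of all genes. Differences in this text are therefore given as values with their errors.

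The start regions of Cldn2, F11r and Cldn4 are shown because Cldn2 and F11r had the smallest p-values of the 9 genes and Cldn4 varied most. Each run holds the 250 bases before the start of the gene in RefSeq (GRCm38.p6), written 5′ to 3′ on the strand of the gene, and capitals mark matches to 4 motifs that were chosen after the sequences and the values had been seen. The motifs, searched on both strands, were TGANTCA (the AP-1 core, which reads the same on both strands), TTTATG (a core of CDX sites), CAGGTG (an E-box of the kind bound by Snail proteins) and TATAAA (the TATA box). The Cldn2 run is chrX:139800558-139800807 on the plus strand, the F11r run is chr1:171437311-171437560 on the plus strand and its end reaches into the first exon of the count table, and the Cldn4 run is chr5:134946935-134947184 on the minus strand.
Cldn2 promoter: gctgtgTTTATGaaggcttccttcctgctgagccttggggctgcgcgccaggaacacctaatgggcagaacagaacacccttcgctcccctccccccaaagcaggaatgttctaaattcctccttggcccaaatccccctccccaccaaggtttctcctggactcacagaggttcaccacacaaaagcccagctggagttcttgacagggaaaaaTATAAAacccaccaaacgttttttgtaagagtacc
F11r promoter: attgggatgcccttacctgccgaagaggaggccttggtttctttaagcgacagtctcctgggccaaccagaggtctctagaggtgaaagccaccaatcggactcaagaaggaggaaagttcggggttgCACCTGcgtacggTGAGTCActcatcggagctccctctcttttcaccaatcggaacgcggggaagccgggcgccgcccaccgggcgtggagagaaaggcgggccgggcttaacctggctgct
Cldn4 promoter: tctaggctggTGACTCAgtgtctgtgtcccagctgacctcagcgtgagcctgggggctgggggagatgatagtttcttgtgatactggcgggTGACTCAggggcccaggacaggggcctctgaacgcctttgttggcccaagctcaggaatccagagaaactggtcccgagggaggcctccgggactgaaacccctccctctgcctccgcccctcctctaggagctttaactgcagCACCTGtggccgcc
Cldn2 held TTTATG between 244 and 239 bases before its start and TATAAA between 35 and 30 bases before it. F11r held 1 TGANTCA match, at 109 to 103 bases before its start, and Cldn4 held 2, at 240 to 234 and at 158 to 152 bases. An E-box of this kind stood at 122 to 117 bases in F11r and at 14 to 9 bases in Cldn4. Among the 32851 promoter entries of the same length, 6.75% held TGANTCA, 10.8% TTTATG, 17.2% CAGGTG and 12.4% TATAAA. The members had 10 entries for 8 genes, of which 3 held TGANTCA (Cldn4, Cldn15 and F11r), 4 CAGGTG (Cldn4, F11r, Cldn7 and Ocln, the latter 2 in 1 of their 2 entries each), and Cldn2 alone TTTATG and TATAAA. Cldn23 had no entry. These matches describe letters and were not tested for binding.

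Sequencing depth was between 14888760 and 22412703 counts per library. Counts were scaled to the effective library size by the TMM method and are given as CPM, the usual counts per unit of library size. The TMM factors were between 0.900 and 1.03 in the normal cys and between 1.02 and 1.12 in the low cys libraries, so that scaling to total counts alone raised the median log2 fold change of all genes by 0.14. Epithelial genes were high in each library, with Epcam at 2671 ± 425 CPM (SD, n = 4) in normal cys and 2167 ± 149 CPM (SD, n = 3) in low cys mice. The summed level of 8 epithelial reference genes was between 16870 and 19167 CPM in the normal cys and between 14065 and 16719 CPM in the low cys libraries, without overlap. Low cys library X23SI4 was lowest in this sum and also in the sum of 9 enterocyte genes, with 20195 CPM against 36015 to 57710 CPM elsewhere. Normal cys library X1SI4 was lowest in the sum of 6 Paneth cell genes, with 711 CPM against 2262 to 4944 CPM elsewhere. In tissue RNA, fewer cells of a type and less RNA per cell cannot be told apart.

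Claudin-7 and claudin-3 transcripts led the group when counts were scaled by exon length (RPKM, which is CPM per kilobase of exon). Cldn7 had 558 ± 65.1 RPKM (SD, n = 7), and Cldn3 had 335 ± 29.1 RPKM (SD, n = 7). Their ranges over the 7 libraries did not overlap with each other or with any other member. Cldn15 followed with 153 ± 28.7 RPKM, F11r with 111 ± 13.4 RPKM and Cldn4 with 94.0 ± 55.8 RPKM (SD, n = 7 for each). Cldn15 was above F11r in 7 of 7 libraries, although their ranges overlapped. F11r was above Cldn4 in 5 of 7 libraries, with the normal cys libraries SI9 and X1SI4 as exceptions. Cldn4 was above Cldn2 in 5 of 7 libraries, and both exceptions, X23SI4 and X26SI4, were low cys libraries. The order of this pair thus differed between the diets in the means, with 118 ± 63.99 RPKM for Cldn4 and 41.6 ± 12.1 RPKM for Cldn2 in normal cys (SD, n = 4) against 62.6 ± 24.4 and 73.3 ± 20.8 RPKM in low cys mice (SD, n = 3), a difference that was not tested. Cldn2 had 55.2 ± 22.5 RPKM and was above Ocln, with 33.7 ± 6.53 RPKM, in 5 of 7 libraries, where SI9 and X1SI4, both normal cys, were the exceptions. The lowest levels were those of Cldn23 (20.9 ± 1.85 RPKM) and Tjp1 (17.6 ± 2.25 RPKM), with Cldn23 above Tjp1 in 7 of 7 libraries. So F11r, Cldn4, Cldn2 and Ocln had neighbours from which they did not differ beyond the spread between libraries.

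**Figure D1:**
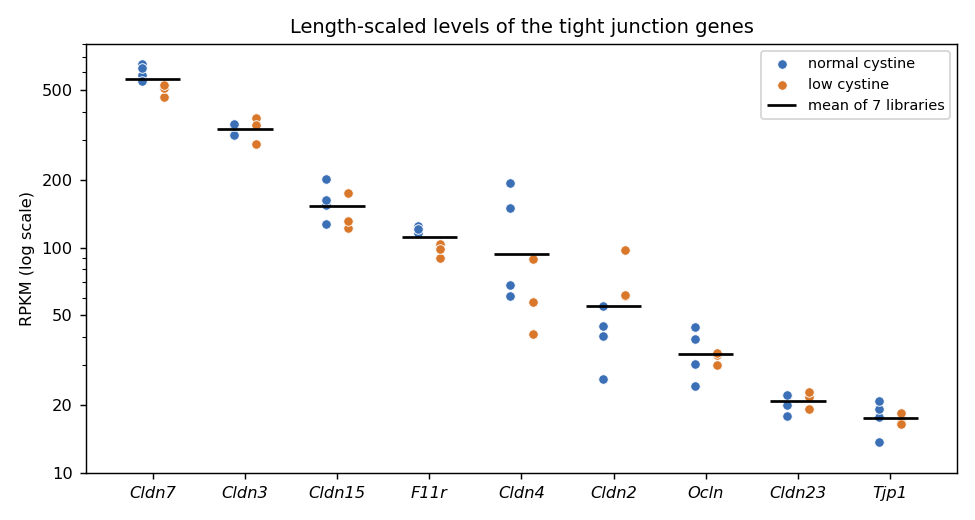
Length-scaled level of the 9 tight junction genes in RPKM on a log axis, 1 point per library (blue normal cystine, orange low cystine), with the mean of the 7 libraries as a line. Cldn7 and Cldn3 stand apart at the top, and Cldn4 spans the widest range on the log scale, from 41.4 to 193 RPKM.

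Most other claudins were not detectable at this depth or had few counts. Of 27 further claudin genes matched in the table, 2 passed the filter, 24 had at most 10 counts in every library and 13 of these had 0 counts in all libraries. Cldn12 had 8.39 RPKM on average and Cldn8, a sealing claudin known from colon and kidney, had 1.56 RPKM. Cldn20 had between 2 and 14 counts. Cldn5, the claudin of blood vessels, had between 0 and 5 counts per library, and Cldn18, known from stomach, had 0 counts in all libraries. The row that the table names Cldn25 carries the identifier of Cldnd1 and was not counted as a claudin. None of the 50-base stretches of the transcripts of the 6 member claudins, Ocln and Tjp1 occurred in transcripts of another gene, and for F11r the share was 0.868%. The exons of Cldn3 overlap the gene Wbscr25 on the other strand, and since the strand setting of the counting is not given, reads of that gene cannot be told apart from those of Cldn3.

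Claudin-2 forms pores for sodium and water, and its gene lies on chromosome X from 139800828 to 139811386 (GRCm38) in 4 exon blocks. Cldn2 had 184 CPM in library X17SI4, 148 in X32SI4, 86.7 in SI9 and 134 in X1SI4 on the normal cystine diet. On the low cystine diet it had 324 CPM in X23SI4, 202 in X26SI4 and 206 in X10SI4. Every low cys library was above every normal cys library, and X23SI4 was far above the other low cys libraries. The means were 138 ± 40.2 CPM (SD, n = 4) and 244 ± 69.2 CPM (SD, n = 3). The log2 fold change was 0.82 (standard error 0.26, 95% interval 0.23 to 1.41), with an unadjusted p of 0.0119 and an adjusted p of 0.794 in edgeR. The two-sided exact permutation test over libraries gave p = 0.0571, where 0.0286 is the smallest p that 4 against 3 libraries allow. Without X23SI4 the log2 fold change was 0.57, with an unadjusted edgeR p of 0.0614.
Genes of crypts and dividing cells were higher in some of the same libraries. The summed level of 9 crypt and proliferation genes was 398 CPM in X23SI4, 385 in X10SI4 and 255 in X26SI4 on the low cystine diet, and 428 CPM in X17SI4, 284 in X32SI4, 221 in SI9 and 201 in X1SI4 on the normal diet. Of these 9 genes 8 had a positive log2 fold change and none was at 0, where 48.8% of all genes had a negative one. An unadjusted edgeR p-value under 0.05 was found for 0 of the 9, against 5.49% of all genes. The normal cys libraries with the lowest crypt sums, SI9 and X1SI4, also had the lowest Cldn2 levels, while X17SI4 had the highest crypt sum of all 7 libraries and less Cldn2 than any low cys library. Their part in the Cldn2 difference was not tested.

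Claudin-15 is the other pore-forming claudin of the small intestine, and its gene lies on chromosome 5 from 136966616 to 136975858. It had between 271 and 429 CPM in the normal cys libraries, with X1SI4 lowest and SI9 highest. The low cys libraries had 260.4 CPM (X23SI4), 279.7 CPM (X26SI4) and 369.6 CPM (X10SI4) and overlapped with the normal range. The log2 fold change was -0.18 (95% interval -0.61 to 0.26), and the two-sided exact permutation test gave p = 0.486. A test of the difference between Cldn15 and Cldn2 was not made.

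**Figure D2:**
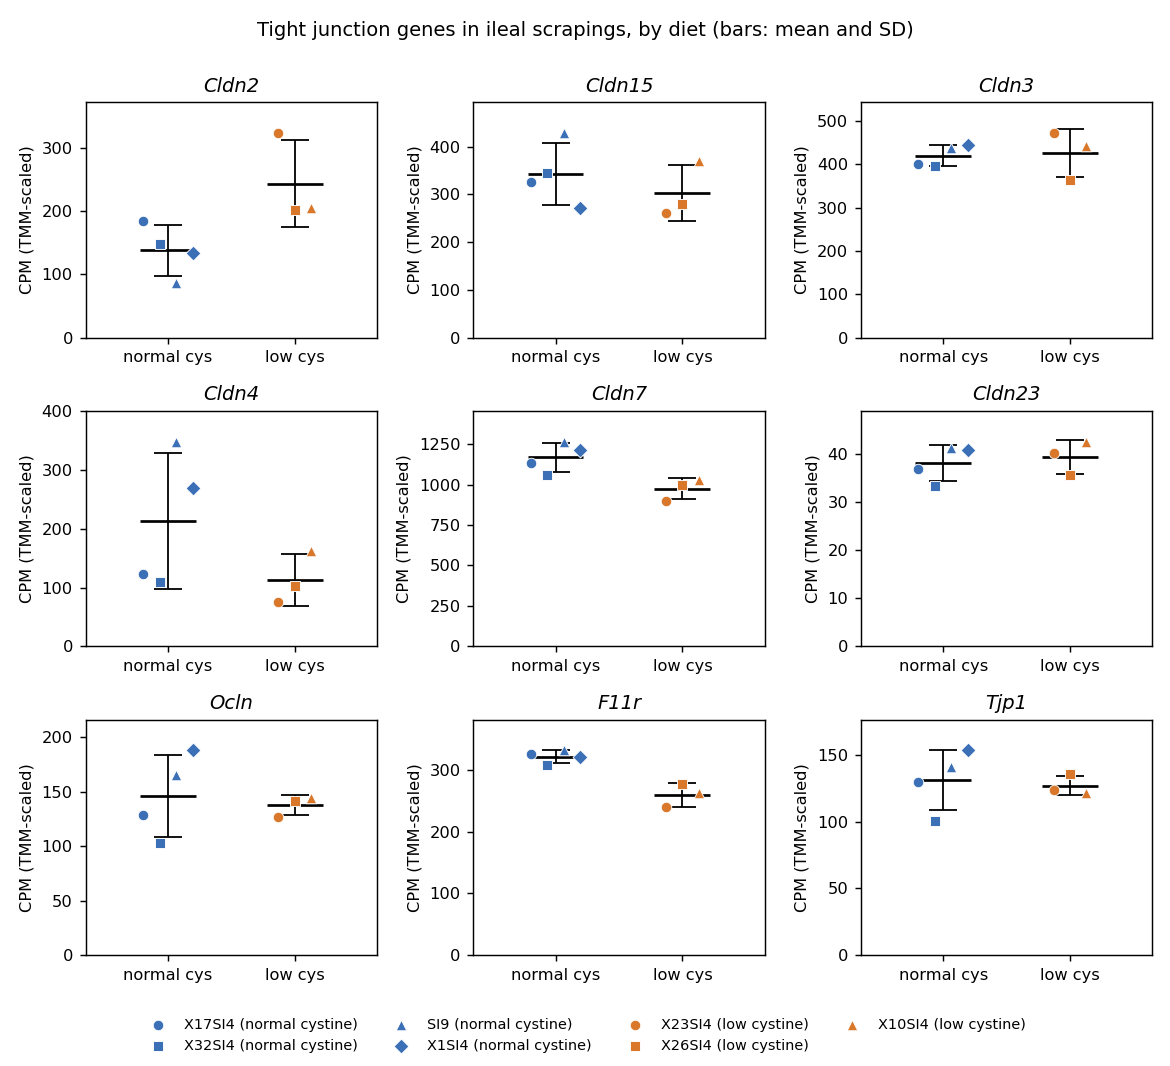
Expression of each tight junction gene in CPM after TMM scaling, 1 point per library and 1 symbol per mouse, with the mean as a line and the SD as a bar. In Cldn2 the 3 low cys points lie above the 4 normal cys points, in F11r and Cldn7 they lie below, and in Cldn4 the normal cys points X1SI4 and SI9 lie apart from the rest.

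Among the sealing claudins, Cldn7 was lower in all low cys libraries, Cldn4 was variable and Cldn3 was even. Claudin-7 forms a complex with the adhesion protein EpCAM, and its gene lies on chromosome 11 from 69964779 to 69967885. Cldn7 had 1134 CPM in X17SI4, 1063 in X32SI4, 1266 in SI9 and 1214 in X1SI4 on the normal cystine diet. It had 902 CPM in X23SI4, 996 in X26SI4 and 1030 in X10SI4 on the low cystine diet. The groups did not overlap, but the gap between X32SI4 and X10SI4 was small compared with the SD of 89.3 CPM (n = 4) and 66.1 CPM (n = 3). The log2 fold change was -0.26 (standard error 0.14, 95% interval -0.58 to 0.06), with an unadjusted edgeR p of 0.0997 and an exact permutation p of 0.0571 (two-sided). It was -0.11 with scaling to total counts, and in DESeq2 the unadjusted p was 0.0441 and the adjusted p 0.830. Epcam itself had a log2 fold change of -0.30 (standard error 0.18, unadjusted p = 0.122 and adjusted p = 0.794 in edgeR), and its libraries overlapped.

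Cldn4, which lies on chromosome 5 from 134945126 to 134946934 with 39279 bases between it and Cldn3, was the most variable member. It had 348 CPM in SI9 and 269.6 CPM in X1SI4, but 123 CPM in X17SI4 and 109.7 CPM in X32SI4, all on the normal cystine diet. The low cys libraries had 74.9 CPM (X23SI4), 103 CPM (X26SI4) and 161 CPM (X10SI4). The normal cys libraries thus formed a high and a low pair, and the low pair lay within the low cys range. The log2 fold change was -0.91 (standard error 0.45, 95% interval -1.94 to 0.12), with an unadjusted edgeR p of 0.0761 and an adjusted p of 0.794. The highest library was 4.65 times the lowest, against 3.73 times for Cldn2 and 1.82 times or less for the other 7 genes. In DESeq2 the unadjusted p was under 0.05, as it was in edgeR without X17SI4, X32SI4 or X10SI4, and the estimate was -0.56 without SI9.
The same pair of normal cys libraries was highest in the summed level of genes of mature enterocytes. The sum of 9 such genes was 57710 CPM in X1SI4, 56345 in SI9, 39269 in X32SI4 and 36863 in X17SI4. In the low cys libraries it was 37120 CPM in X10SI4, 36015 in X26SI4 and 20195 in X23SI4, the library with the least Cldn4. Of the 9 genes 8 had a negative log2 fold change, against 48.8% of all genes, and none was at 0. For 1 of the 9 (Apoa1) the unadjusted edgeR p-value was under 0.05, against 5.49% of all genes. The part of the 9 genes in the Cldn4 difference was not tested.

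Cldn3, on chromosome 5 from 134986214 to 134987476, had between 397 and 445 CPM in the normal cys libraries and 472, 364 and 443 CPM in the low cys libraries X23SI4, X26SI4 and X10SI4. Its log2 fold change was 0.02 (95% interval -0.29 to 0.34). Cldn23, on chromosome 8 from 35824709 to 35826559, had between 33.2 and 41.2 CPM in the normal cys libraries and 40.1, 35.5 and 42.5 CPM in X23SI4, X26SI4 and X10SI4. Its log2 fold change was 0.05 (95% interval -0.23 to 0.34). Cldn3 and Cldn23 were the steadiest claudins over all 7 libraries, with coefficients of variation of 8.70% and 8.88%, against 40.7% for Cldn2 and 59.3% for Cldn4. Counting error was at most 4.19% for the library with the fewest counts of Cldn23, which is not small beside the 8.88% of this gene. It was at most 2.46% for the other members, small beside the values of Cldn2 and Cldn4.

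The junctional adhesion molecule A binds its like on the neighbouring cell, and F11r lies on chromosome 1 from 171437535 to 171464603. It had 326 CPM in X17SI4, 309 in X32SI4, 332 in SI9 and 321 in X1SI4 on the normal cystine diet, and 239.8 CPM in X23SI4, 277 in X26SI4 and 262 in X10SI4 on the low cystine diet. All low cys libraries were below all normal cys libraries, and the normal cys libraries lay close together. The means were 322 ± 9.95 CPM (SD, n = 4) and 259.7 ± 18.8 CPM (SD, n = 3), a log2 fold change of -0.31 (standard error 0.12, 95% interval -0.58 to -0.04). The p-value was 0.0285 unadjusted and 0.794 adjusted in edgeR, and the two-sided exact permutation test gave p = 0.0286. The SD of F11r within the normal cys libraries on the log2 scale was smaller than that of all but 0.693% of the genes tested. With scaling to total counts the log2 fold change was -0.17 (unadjusted p = 0.177 and adjusted p = 0.659 in edgeR), and the libraries were still apart. The unadjusted edgeR p was also over 0.05 without normal cys library X17SI4 (0.0507) or SI9 (0.0579) and without low cys library X23SI4 (0.113) or X10SI4 (0.0808).

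Occludin and ZO-1 transcripts showed no difference beyond the spread between mice. Ocln, on chromosome 13 from 100496507 to 100552718, had 129 CPM in X17SI4, 103 in X32SI4, 165 in SI9 and 188 in X1SI4, and the low cys libraries lay inside this range with 127, 141 and 144 CPM in X23SI4, X26SI4 and X10SI4. Its log2 fold change was -0.09 (95% interval -0.54 to 0.36), and the two-sided exact permutation test gave p = 0.886. Tjp1, on chromosome 7 from 65296165 to 65371239, had between 101 and 154 CPM in the normal cys libraries, again with X32SI4 lowest and X1SI4 highest, and between 122 and 136 CPM in the low cys libraries. Its log2 fold change was -0.05 (95% interval -0.40 to 0.30), and the two-sided exact permutation test gave p = 0.857. With scaling to total counts both signs turned, to 0.07 for Ocln and 0.11 for Tjp1. Among normal cys libraries the coefficient of variation was 25.8% for Ocln and 17.1% for Tjp1, and among low cys libraries it was 6.67% and 5.81%.

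**Figure D3:**
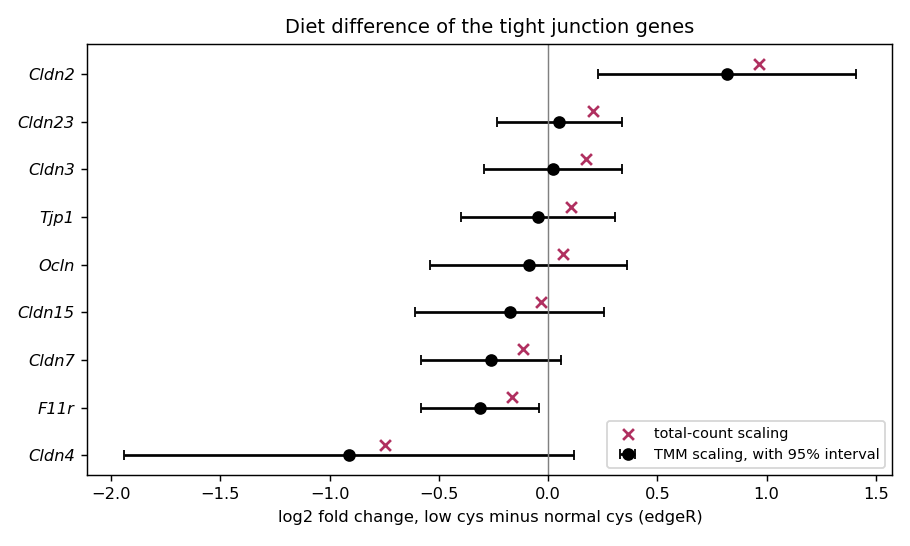
Log2 fold change of each tight junction gene on the low against the normal cystine diet, with the 95% interval of edgeR's quasi-likelihood fit (black) and the estimate with scaling to total counts (red cross). The intervals of Cldn2 and F11r lie on 1 side of 0 before adjustment, and total-count scaling moves all genes to the right.

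Since the low cys libraries lay below all normal cys libraries in the summed level of the epithelial reference genes, each member was also expressed relative to these genes, as its log2 CPM minus the mean log2 CPM of the 8 reference genes. The reference mean was 10.74 ± 0.10 (SD, n = 4) in normal cys and 10.57 ± 0.10 (SD, n = 3) in low cys libraries. Every member difference in mean log2 CPM was thereby shifted upward by the same amount. The log2 fold changes given above are edgeR estimates, so their distance from the values on this scale is not the same for each gene. On this scale the low cys libraries were still above the normal cys libraries in Cldn2, with a difference of 1.01 (exact permutation test, two-sided, p = 0.0571). For F11r it was -0.14 (exact permutation test, two-sided, p = 0.171) and for Cldn7 -0.08 (exact permutation test, two-sided, p = 0.457), and the libraries of the diets overlapped for both. Cldn4 differed by -0.63 (exact permutation test, two-sided, p = 0.314). The other 5 genes differed by 0.00 (Cldn15) to 0.23 (Cldn23) with overlap. Of the 8 reference genes, 7 had a negative log2 fold change, against 48.8% of all genes, while Krt19 had a log2 fold change of 0.20. An unadjusted edgeR p-value under 0.05 was found for 2 (Krt20 and Ezr), against 5.49% of all genes. Without overlap were 3 (these and Vil1), against 6.83% of all genes. After adjustment 0 passed, and none was at 0. These shares of all genes are also the background of the lists that follow. All 7 tested stroma genes had a positive log2 fold change, of which 2 (Dcn and Col3a1) stood under 0.05 unadjusted in edgeR and 0 passed after adjustment, and their list had a sum of 24.3 to 31.2 CPM in the normal cys and 37.5 to 43.6 CPM in the low cys libraries. Leukocyte genes had a sum of 119 to 204 CPM in the normal cys and 218 to 321 CPM in the low cys libraries, but 5 of the 10 genes had a negative log2 fold change, the median was 0.02, and Jchain, an antibody chain of plasma cells, was the 1 gene under an unadjusted edgeR p-value of 0.05. All 7 smooth muscle genes had a positive log2 fold change, with a median of 1.44 and 2 (Actg2 and Des) under an unadjusted edgeR p-value of 0.05. Their summed levels overlapped (181 to 224 CPM in normal cys and 170 to 264 CPM in low cys), but these sums were mostly Mylk, also a plaque list gene. Mylk alone had 173 to 212 CPM in normal cys and 164 to 226 CPM in low cys libraries (log2 fold change 0.01). All 6 Paneth cell genes were positive too, with a median of 0.75 and 0 under this threshold, and their sums overlapped. The part of these 4 lists in the member differences was not tested.

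The make-up of the claudin transcripts was read as the share of each gene in the summed RPKM of all 33 claudin genes of a library, a ratio that does not depend on library size. Cldn7 made up 46.8% ± 1.40 (SD, n = 4) in normal cys and 43.6% ± 3.37 (SD, n = 3) in low cys mice, and Cldn3 made up 23.9% to 27.2% in normal cys and 26.7% to 33.0% in low cys mice. The share of Cldn2 was 4.58% in X17SI4, 3.87% in X32SI4, 1.80% in SI9 and 3.04% in X1SI4, and it was 8.59% in X23SI4, 5.63% in X26SI4 and 4.998% in X10SI4. All low cys libraries were above all normal cys libraries, by 3.08 percentage points on average and by 1.99 points without X23SI4 (exact permutation test, two-sided, p = 0.0286, the smallest possible). Cldn23 was separated in the same direction at a much lower level, with 1.60% ± 0.0637 (SD, n = 4) and 1.85% ± 0.0669 (SD, n = 3, exact permutation test, two-sided, p = 0.0286). The CPM of Cldn23 itself overlapped between the diets, with a log2 fold change of 0.05, and a share also depends on the other claudins in the sum. Cldn3, Cldn4, Cldn7 and Cldn15 overlapped between the diets (exact permutation tests, two-sided, p = 0.0571, 0.286 and 0.2 for the first 3, and higher for Cldn15). The shares are not independent, since they add up to the whole, and the p-values are unadjusted over the 8 shares compared. The pore-forming pair Cldn2 and Cldn15 together held 12.6% to 17.9% in the normal cys and 17.8% to 19.4% in the low cys libraries. The diets overlapped in this share (exact permutation test, two-sided, p = 0.143). The summed claudin level was 1284 ± 131 RPKM (SD, n = 4) and 1150.1 ± 80.6 RPKM (SD, n = 3).

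**Figure D4:**
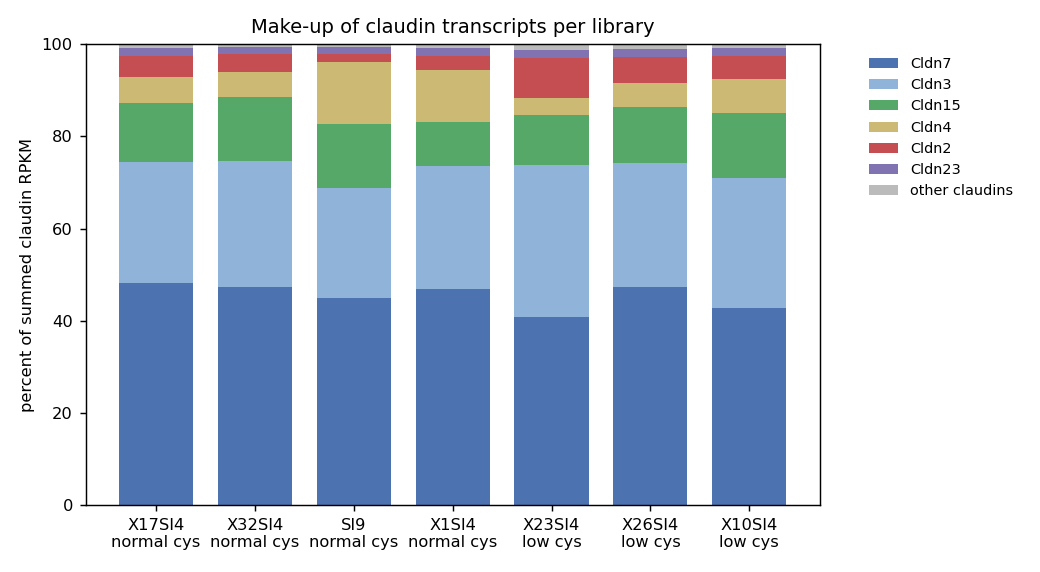
Share of each claudin gene in the summed claudin RPKM of each library, in percent, as stacked bars for 4 normal cys and 3 low cys libraries. The Cldn2 part (red) is widest in low cys library X23SI4 with 8.59%, and the Cldn4 part (yellow) is widest in normal cys libraries SI9 and X1SI4.

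The other components of the cell junctions were described with lists of 28 claudins, 12 membrane proteins and 25 plaque proteins of the tight junction, 19 regulators and partners of claudins, 12 adherens junction genes and 8 desmosome genes. Of these, 73 were tested, 0 were called in edgeR after adjustment, and 2 genes were higher and 4 lower with an unadjusted p-value under 0.05, against 2.66% and 2.83% of all genes. Without overlap between the diets were 1 of the 73 on the higher and 5 on the lower side, against 3.32% and 3.51% of all genes. A negative log2 fold change was found in 49 of the 73 genes with TMM scaling and in 28 with scaling to total counts, against 48.8% of all genes with TMM and 28.2% with total counts. Their median log2 fold change was -0.06, against 0.01 for all genes tested.

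Among the other membrane proteins, 10 of 12 were tested, with 1 higher and 1 lower at an unadjusted p-value under 0.05 and a median of -0.11. Igsf5, which encodes the adhesion molecule JAM-4, had 88.4 ± 9.01 CPM (SD, n = 4) and 72.4 ± 3.69 CPM (SD, n = 3), without overlap (log2 fold change -0.29, unadjusted p = 0.0453 and adjusted p = 0.794 in edgeR). Clmp, an adhesion molecule of the same family as Cxadr, had between 7 and 23 counts per library (log2 fold change 1.12, unadjusted p = 0.0323 and adjusted p = 0.794 in edgeR), and its libraries overlapped. The highest levels belonged to Lsr, a protein of tricellular corners (56.2 RPKM, log2 fold change -0.14), Crb3, a polarity protein (54.3 RPKM, -0.21), and Cxadr (39.9 RPKM, -0.08). None of these 3 had an unadjusted p-value under 0.05.

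Among the other plaque proteins, 24 of 25 were tested, with 1 higher and 1 lower and a median of 0.00. Pard6b, a polarity scaffold, had 60.9 ± 8.07 CPM (SD, n = 4) and 44.5 ± 11.2 CPM (SD, n = 3), without overlap (log2 fold change -0.46, unadjusted p = 0.0403 and adjusted p = 0.794 in edgeR). Its paralog Pard6g had between 1 and 20 counts per library, with 0.179 ± 0.142 CPM (SD, n = 4) and 0.738 ± 0.100 CPM (SD, n = 3), also without overlap (log2 fold change 2.04, unadjusted p = 0.00709 and adjusted p = 0.794 in edgeR). The level of Pard6g is thus far below that of Pard6b per length, with 0.133 against 15.9 RPKM. The ZO-1 paralog Tjp3 had 88.2 RPKM and a log2 fold change of 0.10, cingulin (Cgn) had 43.4 RPKM and -0.18, and Ybx3, a factor bound by ZO-1, had 46.0 RPKM and 0.50. These 3 were not under an unadjusted p-value of 0.05.

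Among the regulators and partners of claudins, 18 of 19 were tested, with 0 higher and 2 lower. The protease matriptase (St14) cleaves EpCAM and is held in check by the inhibitors Spint1 and Spint2. Spint1 had 564 ± 69.7 CPM (SD, n = 4) and 433 ± 44.05 CPM (SD, n = 3), without overlap (log2 fold change -0.38, unadjusted p = 0.0334 and adjusted p = 0.794 in edgeR). St14 had 365 ± 38.74 CPM (SD, n = 4) and 295 ± 17.8 CPM (SD, n = 3), also without overlap (log2 fold change -0.31, unadjusted p = 0.0478 and adjusted p = 0.794 in edgeR). Spint2 had a log2 fold change of -0.17 (unadjusted p = 0.263 and adjusted p = 0.804 in edgeR) and Hnf4a, a transcription factor of enterocytes, of -0.20 (unadjusted p = 0.251 and adjusted p = 0.804 in edgeR). On total counts the estimates were -0.24 for Spint1, -0.16 for St14 and -0.15 for Epcam.

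Adherens junction and desmosome genes had 0 genes under an unadjusted p-value of 0.05 among 11 and 8 tested. Without overlap between the diets were 1 adherens junction gene, on the lower side, and 0 desmosome genes. The medians were -0.10 and -0.11. The log2 fold change was -0.15 for Cdh1 (E-cadherin), -0.10 for Ctnnb1 (beta-catenin) and -0.23 for Ctnna1 (alpha-catenin). It was -0.24 for Dsp (desmoplakin), -0.10 for Dsg2 (a desmosomal cadherin) and -0.20 for Perp. On total counts Ctnnb1 and Dsg2 had estimates of 0.05.

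**Figure D5:**
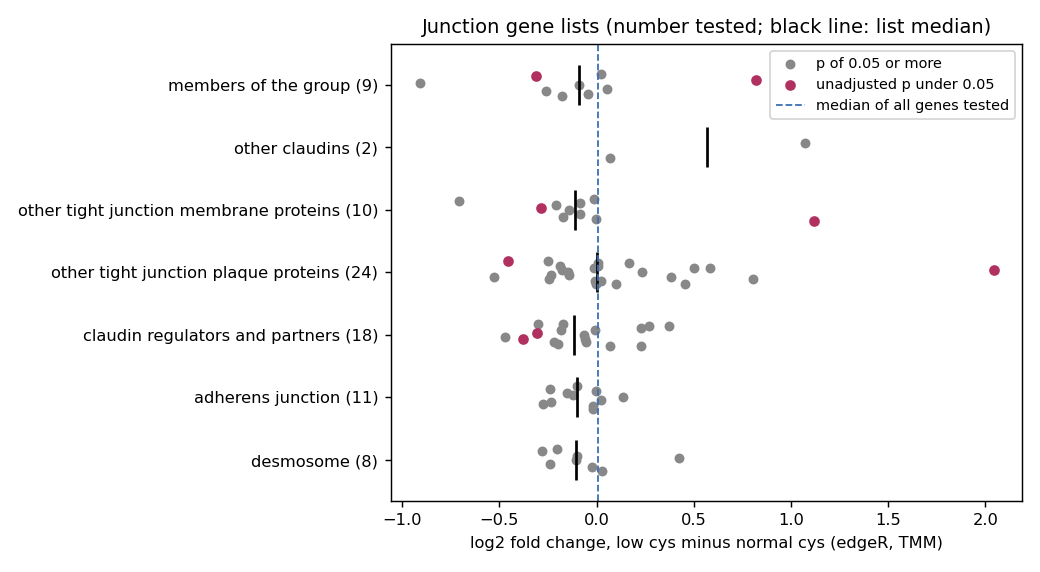
Log2 fold change on the low against the normal cystine diet for the genes of each junction list (1 point per gene, red for an unadjusted edgeR p under 0.05), with the median of the list as a black line and the median of all genes tested as a dashed line. Cldn2, Clmp and Pard6g lie to the right, and 5 lower genes under this threshold lie between -0.46 and -0.29.

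The gene whose log2 CPM ran closest to a member over the 7 libraries was taken as the one with the highest Pearson correlation among all genes tested. For Cldn2 this was Ybx2 (0.988), for Cldn4 Rundc1 (0.986), for F11r Gsdmd (0.988) and for Cldn7 Sidt2 (0.990). For Ocln it was Mterfd1 (0.996), for Tjp1 Itgav (0.993), for Cldn3 Rin3 (0.972), for Cldn15 AA415398 (0.978) and for Cldn23 Zfp882 (0.9752). With 7 libraries and this many genes, such values describe likeness only. Among the members, the highest value for Cldn2 was 0.113 (Cldn3). Ocln and Tjp1 reached 0.928 with each other, Cldn7 and F11r 0.918, and Cldn4 and Cldn7 0.902. Only the highest correlation was looked for, so opposite patterns, with a negative correlation, were not examined.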

How the data were processed

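RNA from ileal scrapings of 7 mice was measured by poly(A)-selected, stranded sequencing. The authors trimmed reads (Trim Galore 0.6.5), removed ribosomal reads (SortMeRNA), aligned to GRCm38 (STAR) and deposited raw counts per gene on exons (featureCounts, Ensembl release 70), without normalization. The strand setting of the counting is not given in the sources used here.

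Diets were taken from the treatment labels. Totals were 14888760 to 22412703 counts per library. No pair of libraries was alike, with counts differing in at least 19420 genes. Current names came from GENCODE M21 by gene identifier, which matched 36345 of the 38293 rows. Genes kept by filterByExpr (minimum count 10, minimum total 15) were normalized by TMM and compared with the robust quasi-likelihood test of edgeR 4.0.16 (R 4.3.3), with Benjamini-Hochberg adjustment over 14869 genes. Log2 CPM used a prior count of 2. RPKM used the exon length of the table. Exact permutation tests used all 35 splits. Alternatives were DESeq2 1.42.0, limma-voom (limma 3.58.1), other scalings and filters, and leaving out each library. The code was tested on simulated data.

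The 9 members, the lists and the tests were chosen with earlier results of these data known. The genes named are the 9 members, the other junction genes with an unadjusted p under 0.05 (up to 8) and up to 3 of each list with the highest RPKM. Cldn20, Cldn5 and Cldn18 were named after their values were seen. Nothing in the labels gives a batch, so batches were not examined. The label SI9 has another form than those of the other libraries, and the reason is not given. Promoter sequences are from RefSeq (GRCm38.p6).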

Additional observations from a re-analysis of the deposited data

How the results depend on the processing

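The count of 0 members with an adjusted p-value under 0.05 held in DESeq2, limma-voom, the other scalings and filters and with each library left out. At an unadjusted p-value under 0.05 the number of members, 2 in the main test, was 4 in DESeq2 and 1 with total counts in edgeR (chosen after the data were seen), and it ranged from 0 (without X23SI4) to 3 with single libraries left out, with 1 without SI9. Over all genes the adjusted count, 0 in edgeR, was 16 in DESeq2 and ranged from 0 to 1 (without X32SI4), where the unadjusted count of 817 was 258 without X23SI4, 403 without SI9, 522 without X10SI4 and 1763 without X17SI4. The unadjusted count of other junction genes, 6, was 3 with at least 10 counts in every library and ranged from 1 (without SI9) to 10 (without X32SI4), with 2 without X23SI4 and 3 without X10SI4. Members without overlap between the diets numbered 3, against 6.83% of all genes. They also numbered 3 with total counts, against 8.25% of all genes, and 3 with DESeq2's size factors. With single libraries left out they numbered 3 to 4, but fewer libraries make a lack of overlap easier to reach. The share of all genes was not computed for DESeq2's size factors or for these smaller sets, so these counts cannot be set against it. Relative to epithelium, 1 member was without overlap, 2 with Epcam and Cdh1 as the reference, and 1 to 3 with single libraries left out (2 without X32SI4, 3 without X26SI4). The shares of all genes beside these were 9.93%, 12%, 14.7% without X32SI4 and 27.5% without X26SI4. The difference in the share of Cldn2, 3.08 percentage points, was 5.41 with CPM in place of RPKM and ranged from 1.99 to 3.78 with single libraries left out. For the pair Cldn2 and Cldn15 it was 2.86 (exact permutation test, two-sided, p = 0.143) and ranged from 1.77 to 3.53.

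Estimates near 0 turned sign, for Ocln to 0.067 and for Tjp1 to 0.11 with total counts. With single libraries left out, the log2 fold change ranged from 0.57 to 0.99 for Cldn2, from -1.26 to -0.56 for Cldn4, from -0.34 to -0.25 for F11r and from -0.30 to -0.20 for Cldn7, and across 0 for Cldn3 (-0.045 to 0.15, and -0.0085 without X10SI4), Cldn23 (-0.0091 to 0.14), Ocln (-0.21 to 0.055) and Tjp1 (-0.14 to 0.04). Cldn4 had an unadjusted edgeR p of 0.0302 without X17SI4, 0.0330 without X32SI4 and 0.0372 without X10SI4. The cause of these shifts was not tested. No paired analysis was possible because the labels give no numbers that the mice of the diets share. With 3 and 4 mice, differences within the spread between mice were not detectable.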
